A study of Chlamydomonas reinhardtii with 9 samples.

Results

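In the green alga Chlamydomonas reinhardtii, 46 nuclear genes had a higher level of messenger RNA in both of the mutants crpaf1-1 and crskip-1 than in wild type. They were chosen from 14540 nuclear genes by their CPM (the reads of a gene divided by all reads counted in its library, times 1000000): a mean of 2 CPM or more over the 9 libraries, a group mean in each mutant at least 1.8 times the wild-type mean, and no overlap between the 3 wild-type values and those of either mutant. The choice used each mutant's values against wild type, so those differences are described below and not tested. The difference between the mutants was not a criterion, but the mean level used the values of both mutants. Gene structure and gene position were not used in the choice.

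The single-celled algae were mutants crpaf1-1 and crskip-1 and wild type, with 3 libraries each, all labelled strain CC5325. Liquid TAP, an acetate-containing medium, was kept at 22 °C on days of 14 h light and 10 h dark, and cells were taken late in G1, the growth phase before DNA is copied. A count of 2 generations is also recorded for all 9 libraries. The labels give neither the kind of lesion in a mutant nor the number of independent mutant lines. Whether replicates came from separate cultures is not said, and p-values then measure only how far these libraries spread, which may be technical.

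PAF1 belongs to a protein complex that accompanies RNA polymerase II along the gene as it is copied and is known for its part in histone modification over transcribed genes. SKIP, found from yeast to animals and plants, works in the spliceosome, which removes introns, and also acts in transcription. The series title joins both to CDKB, a cyclin-dependent kinase of plants and green algae. Neither the files nor the reference table names genes, so members are given by identifier, position, structure and level, and no role is stated for any of them. Identifiers are printed without their ending, _4532.v6.1, which is also the only name the sources used here give for the assembly behind the coordinates.

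Libraries held 13907142 to 19725439 counts. In each group, lane 3 held replicate 1 and lane 2 held replicates 2 and 3. The genes mutated in each strain were not analysed here and so give no check of the labels. The labels name genomic DNA as the molecule while their protocol describes sequencing of polyadenylated RNA, and the values are treated as RNA. Each library pools the RNA of many cells, so fewer cells with a transcript and less of it per cell cannot be told apart. Each value is a share of a library and so is relative to the other transcripts in it.

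Of 12279 nuclear genes with a mean of 2 CPM or more, 342 had a crpaf1-1 mean at least 1.8 times that of wild type and 187 had such a crskip-1 mean. Both held for 48 genes, and 2 of these, Cre01.g037650 and Cre03.g800374, were left out because their values overlapped wild type. The 46 members were 0.375% of the genes at this level. The same rule turned round, for genes lower in both mutants, took 484 genes. These counts use CPM without the TMM scaling of the fit, which lowers crpaf1-1 values and raises crskip-1 values. Its factors were 1.06 to 1.08 in crpaf1-1 and 0.918 to 0.934 in crskip-1. The 342 and 187 are therefore not set against each other. Of the 46, 29 were at least 2-fold higher in both mutants and 8 at least 3-fold. At 10-fold or more there were 4 genes in crpaf1-1 and 1 in crskip-1. All 46 passed the low-count filter of the edgeR quasi-likelihood fit, and that fit called all 46 higher than wild type in each mutant. Over the 13376 genes tested, 28.6% were called higher in crpaf1-1 and 24.4% in crskip-1, and nothing is read from the members' count, since the choice used this contrast. Their median log2 difference from wild type was 1.29 in crpaf1-1 and 1.38 in crskip-1.

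**Figure D1:**
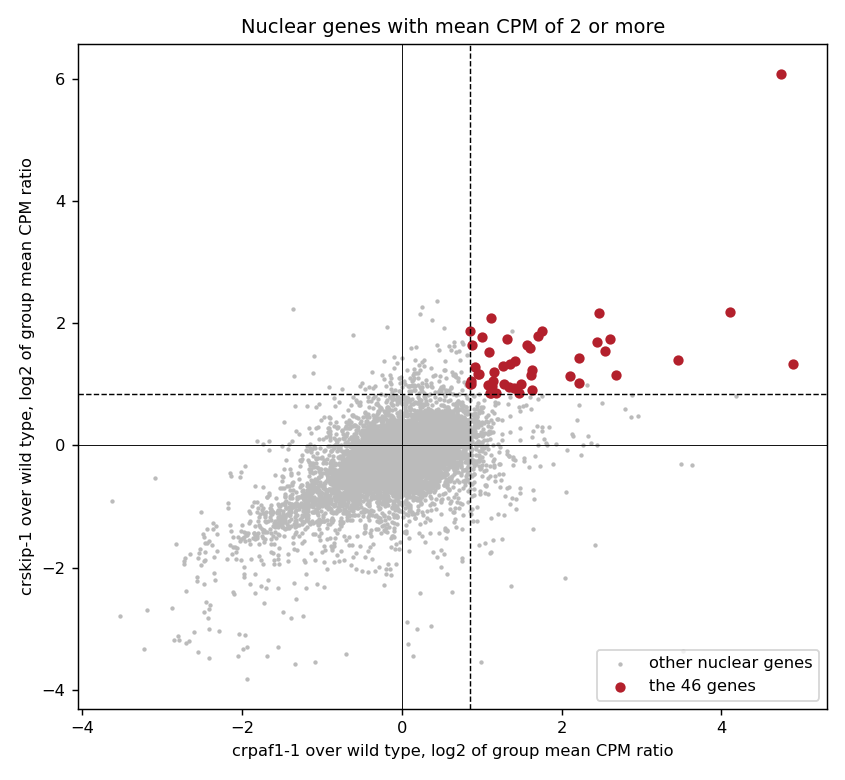
Ratio of group mean CPM to wild type in crpaf1-1 (x axis) and crskip-1 (y axis), both as log2, for nuclear genes with a mean of 2 CPM or more. Dashed lines mark 1.8-fold, each dot is a gene and the 46 genes are red; both axes share the wild-type libraries, so the slope of the cloud is not read, and 1 gene, Cre13.g801584, stands at the upper right with ratios of 26.7 and 67.7.

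Summed over the 46 genes, CPM reached 941, 900 and 951 in the crpaf1-1 libraries and 650, 736 and 800 in the crskip-1 libraries, against 281, 284 and 308 in wild type. These sums are also without TMM scaling. Replicate 3 of crpaf1-1 was the highest of its group for 23 of the 46 genes, and it was so for 32.7% of all genes. Replicate 3 of crskip-1 was the highest for 20 of the 46, and it was so for 28.7% of all genes. The part of these replicates in the members' levels was not tested beyond leaving each out in turn.

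**Figure D2:**
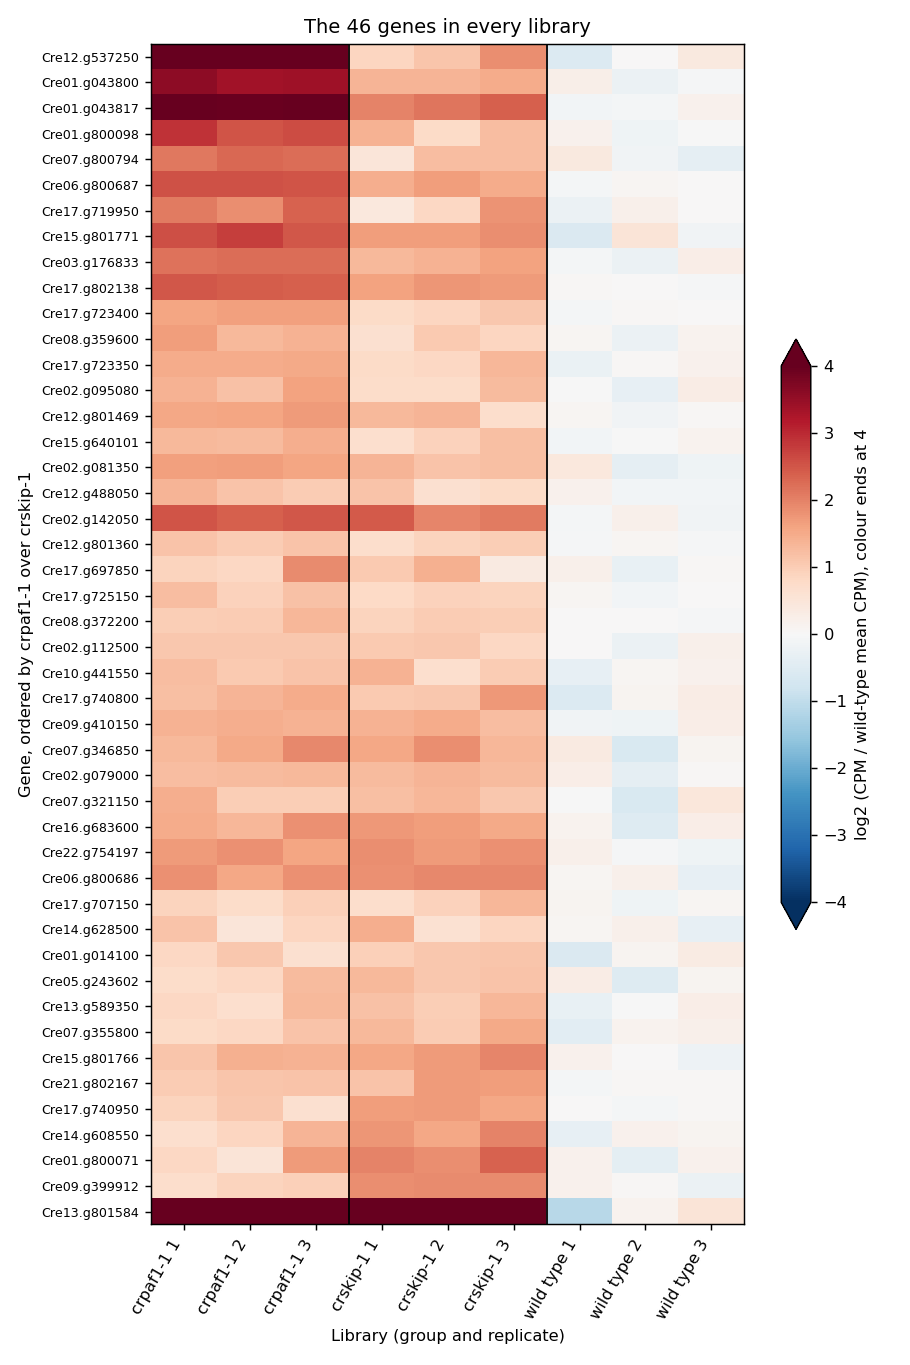
Level of the 46 genes (rows) in the 9 libraries (columns), as log2 of CPM over the wild-type mean of the gene, with rows ordered by the difference between the mutants. All mutant columns are red relative to wild type for all 46 genes, as the choice requires; the top rows are darkest in crpaf1-1, the lowest rows in crskip-1, and Cre13.g801584 is past the end of the colour scale in all 6 mutant libraries.

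Cre13.g801584, a gene of 1 exon block on chromosome 13 (5064977 to 5066137, minus strand), had 3.60, 3.09 and 3.67 CPM in crpaf1-1 and 8.13, 9.18 and 8.92 CPM in crskip-1, against 0.0595, 0.143 and 0.185 CPM in wild type. The gene was close to absent from wild type and well counted in both mutants, with more in crskip-1. The wild-type values rest on 6 reads over all 3 libraries. The ratio of summed reads to wild type, each relative to library totals, was 27.1 in crpaf1-1 (95% counting interval 12.2 to 74.7) and 68.5 in crskip-1 (31.2 to 188). The interval covers counting error only.

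Cre02.g142050, of 2 exon blocks on chromosome 2 (8472584 to 8476015, minus strand), had 8.57, 7.80 and 8.41 CPM in crpaf1-1 and 8.20, 5.83 and 6.33 CPM in crskip-1, against 1.43, 1.71 and 1.36 CPM in wild type. Both mutants stood well above wild type, and their values overlapped each other. On chromosome 17 (6206447 to 6209696, minus strand), Cre17.g802138 had 41.5, 39.8 and 38.3 CPM in crpaf1-1 and 22.4, 25.2 and 23.8 CPM in crskip-1, against 7.55, 7.43 and 7.10 CPM in wild type. Its replicates were close together in each group and the 3 groups were separate. Cre15.g801771 on chromosome 15 (2758143 to 2763058, minus strand) had 6.84, 7.86 and 6.46 CPM in crpaf1-1 and 3.72, 3.66 and 4.17 CPM in crskip-1, against 0.773, 1.64 and 1.05 CPM in wild type. Here too the 3 groups did not overlap. Together with Cre13.g801584 and 4 genes described with their neighbours, Cre01.g043817, Cre06.g800686, Cre06.g800687 and Cre22.g754197, these were the 8 members furthest above wild type in the mutant where the log2 difference of the TMM-scaled edgeR fit was smaller.

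The most abundant member was Cre21.g802167, a gene of 2 exon blocks on contig_21 (96197 to 98540, plus strand), which is not placed on a chromosome. It had 139, 147 and 151 CPM in crpaf1-1 and 152, 223 and 216 CPM in crskip-1, against 64.4, 70.8 and 70.2 CPM in wild type. Replicate 1 of crskip-1 was below the other two of its group and just above the highest crpaf1-1 value. Divided by exonic length, its mean level was 63.5 CPM per kb in crpaf1-1, 85.9 in crskip-1 and 29.9 in wild type. Cre03.g176833 on chromosome 3 (4616766 to 4620543, minus strand) had 108, 112 and 112 CPM in crpaf1-1 and 58.1, 62.7 and 73.1 CPM in crskip-1, against 22.7, 20.2 and 28.7 CPM in wild type. Its mean level per length was 51.9 CPM per kb in crpaf1-1, 30.3 in crskip-1 and 11.2 in wild type, so per length it was below Cre21.g802167 in every group. A gene on the other strand overlaps 6.28% of its exonic bases. The sources used here do not say whether counting used the strand, so reads of such a gene and its partner cannot be told apart.

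Cre15.g640101, of 14 exon blocks on chromosome 15 (904799 to 915103, minus strand), had 38.8, 37.6 and 43.0 CPM in crpaf1-1 and 25.2, 29.6 and 36.4 CPM in crskip-1, against 14.5, 15.4 and 17.3 CPM in wild type. The mutants did not overlap on this scale, but their difference was not called (log2 difference 0.19 ± 0.10 SE, adjusted p = 0.143, edgeR). The median of the mean CPM over all libraries was 7.16 for the 46 genes and 21.3 for the other 12233 nuclear genes at 2 CPM or more. In wild type alone the medians were 2.75 and 21.8 CPM. The choice asked for wild-type values below both mutants, so it partly sets the members' wild-type median.

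The mutants were then set against each other, which asks whether a gene high in both is equally high in both. The mean of 2 CPM used both mutants, and Cre13.g801584, Cre01.g800071 and Cre07.g800794 reached it only through the mutant where they were higher. So did Cre12.g801469, Cre07.g321150 and Cre01.g014100, none of which was called between the mutants. The differences of these genes between the mutants are therefore described and not read as independent of the choice. These genes remain in the counts that follow. Of the 46 genes, 13 were called higher in crpaf1-1 and 12 lower, relative to crskip-1, at an adjusted p under 0.05 in the edgeR quasi-likelihood test over 13376 genes. Of all genes tested, 25.7% were called higher and 28.2% lower, so the members' shares of 28.3% and 26.1% were near the background. The median log2 difference over the 46 genes was -0.08, with quartiles of -0.35 and 0.37, and over all genes the quartiles were -0.26 and 0.24. Scaling decides the balance: with library size alone in place of TMM, which moves the median of all genes by 0.20, 19 members were called higher and 8 lower. The share higher among called members was then 70.4%, against 52% with TMM, and 0 called members turned round. The share of all genes called with library size alone is not given here. The 19, the 8 and the 70.4% are therefore not read as a trait of the members. On the unscaled CPM values, crpaf1-1 lay wholly above crskip-1 for 19 members and wholly below for 7, where all genes gave 50% and 15.3%.

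**Figure D3:**
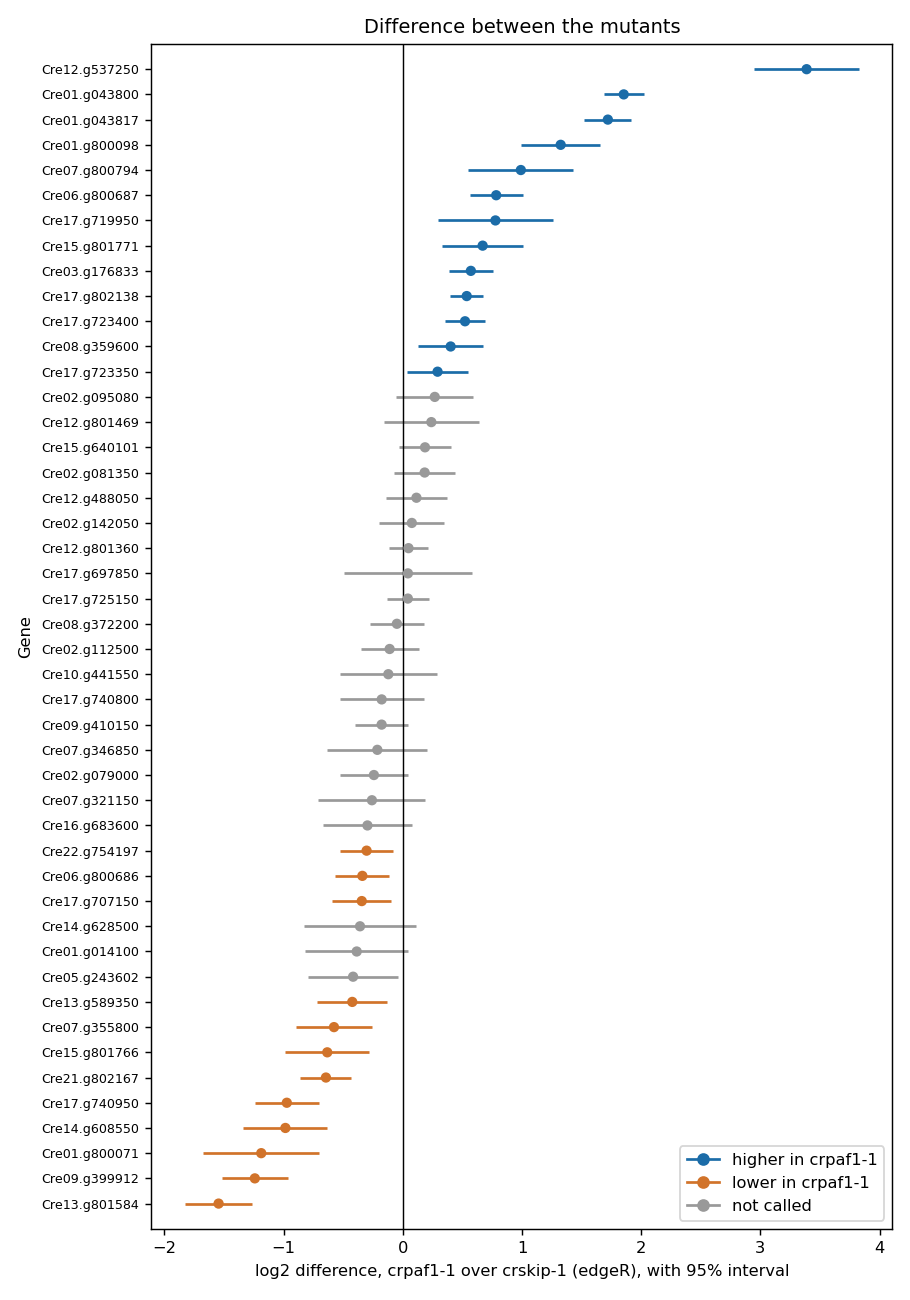
Log2 difference of crpaf1-1 over crskip-1 from the edgeR fit for each of the 46 genes, with its 95% interval; blue marks the 13 genes called higher, orange the 12 called lower and grey the 21 not called. Cre12.g537250 stands far to the right at 3.39 and Cre13.g801584 is the lowest at -1.54.

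Cre12.g537250, a gene of 19 exon blocks on chromosome 12 (6393551 to 6404504, minus strand), differed most between the mutants. Its CPM was 56.4, 42.5 and 33.3 in crpaf1-1 and 2.65, 3.16 and 5.32 in crskip-1, against 1.01, 1.5 and 1.91 in wild type. The lowest crpaf1-1 library was several times the highest crskip-1 library, and crskip-1 was only somewhat above wild type. The log2 difference between the mutants was 3.39 ± 0.21 (SE; adjusted p = 6.06e-10, edgeR).

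Cre01.g800098, of 1 exon block on chromosome 1 (5661641 to 5663003, minus strand), had 10.2, 7.91 and 8.30 CPM in crpaf1-1 and 3.59, 2.36 and 3.24 CPM in crskip-1, against 1.55, 1.21 and 1.36 CPM in wild type. The 3 groups were separate, and the mutants differed by 1.32 ± 0.16 on the log2 scale (SE; adjusted p = 1.74e-06, edgeR). An opposite-strand gene overlaps 8.51% of its exonic bases. The short gene Cre07.g800794 on chromosome 7 (2771312 to 2771861, minus strand) had 3.75, 4.27 and 4.03 CPM in crpaf1-1 and 1.20, 2.05 and 2.01 CPM in crskip-1, against 1.13, 0.785 and 0.679 CPM in wild type. Replicate 1 of crskip-1 was only just above the highest wild-type library. The mutants differed by 0.99 ± 0.21 (log2, SE; adjusted p = 0.000698, edgeR). Among the genes described above, Cre15.g801771 (0.67 ± 0.16, adjusted p = 0.002), Cre03.g176833 (0.57 ± 0.09, adjusted p = 3.55e-05) and Cre17.g802138 (0.54 ± 0.07, adjusted p = 3.18e-06) were also higher in crpaf1-1 (log2 difference ± SE, edgeR).

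In the other direction, Cre13.g801584 differed by -1.54 ± 0.13 (log2, SE; adjusted p = 4.14e-08, edgeR). Cre09.g399912, with 39 exon blocks the gene of most blocks among the 46, lies on chromosome 9 (1454395 to 1471518, minus strand). It had 3.30, 3.70 and 3.91 CPM in crpaf1-1 and 7.25, 7.51 and 7.55 CPM in crskip-1, against 2.26, 2.07 and 1.73 CPM in wild type. The groups were separate and the crskip-1 replicates nearly equal, with a log2 difference between the mutants of -1.24 ± 0.13 (SE; adjusted p = 4.54e-07, edgeR). Cre01.g800071 on chromosome 1 (3746138 to 3747610, minus strand) had 2.18, 1.74 and 3.97 CPM in crpaf1-1 and 4.85, 4.47 and 6.18 CPM in crskip-1, against 1.37, 0.928 and 1.36 CPM in wild type. Replicate 3 of crpaf1-1 was well above the other two of its group, and the groups still did not overlap. The mutants differed by -1.19 ± 0.23 (log2, SE; adjusted p = 0.000344, edgeR). Without that library the difference of crpaf1-1 from wild type was 0.59 in place of 0.99 on the log2 scale, and edgeR no longer called it. Over 15 alternatives that difference ran from 0.59 to 1.20. The choice used this contrast, so the call is a description only.

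Cre14.g608550 on chromosome 14 (154487 to 157100, plus strand) had 4.46, 5.11 and 7.23 CPM in crpaf1-1 and 9.52, 8.19 and 11 CPM in crskip-1, against 2.20, 3.14 and 3.02 CPM in wild type. All 3 groups were separate, and the log2 difference between the mutants was -0.98 ± 0.17 (SE; adjusted p = 9.19e-05, edgeR). Cre17.g740950 on chromosome 17 (5753639 to 5756744, minus strand) had 4.71, 5.39 and 4.03 CPM in crpaf1-1 and 8.20, 8.37 and 7.48 CPM in crskip-1, against 2.62, 2.43 and 2.65 CPM in wild type. Its mutants differed by -0.97 ± 0.13 (log2, SE; adjusted p = 5.12e-06, edgeR). Cre21.g802167, the most abundant member, was lower in crpaf1-1 by -0.64 ± 0.10 (log2, SE; adjusted p = 4.19e-05, edgeR). At least 2-fold apart in the fit were 4 of the genes higher in crpaf1-1 and 3 of the genes lower in it.

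The remaining called members complete the list of 25 and are named for that reason. Cre17.g719950 on chromosome 17 (3030610 to 3035066, plus strand) had 9.43, 8.14 and 11.5 CPM in crpaf1-1 and 3.03, 3.97 and 7.91 CPM in crskip-1, against 1.9, 2.57 and 2.28 CPM in wild type. Replicate 3 of crskip-1 stood well above the other two and close to the lowest crpaf1-1 library, and the log2 difference between the mutants was 0.78 with a wide interval of 0.29 to 1.26 (adjusted p = 0.00879, edgeR). Cre08.g359600 on chromosome 8 (547649 to 555623, plus strand) was also higher in crpaf1-1, by 0.40 ± 0.13 (log2, SE; adjusted p = 0.0138, edgeR). Lower in crpaf1-1 were Cre07.g355800 (-0.58 ± 0.15, adjusted p = 0.00368), Cre13.g589350 (-0.42 ± 0.14, adjusted p = 0.0168) and Cre17.g707150 (-0.34 ± 0.12, adjusted p = 0.0196; log2 difference ± SE, edgeR). For these 3 genes the CPM values of the mutants overlapped or nearly met, as with Cre07.g355800, at 8.57, 8.98 and 11.1 CPM in crpaf1-1 and 12.5, 10.2 and 14.4 CPM in crskip-1, against 3.75, 5.57 and 5.86 CPM in wild type.

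For the other 21 genes the mutants did not differ at this threshold. Their log2 differences lay between -0.42 and 0.27, and the ends of their 95% intervals between -0.83 and 0.64. All 21 intervals stayed within a 2-fold difference either way and 13 stayed within 1.5-fold. One gene, Cre05.g243602, passed without adjustment (adjusted p = 0.0586, edgeR). Cre02.g142050 was among the 21, with a log2 difference of 0.08 and an interval of -0.19 to 0.35, as was Cre12.g801360, with 0.05 and an interval of -0.12 to 0.21. Near 3-fold above wild type in both mutants, and singled out after their values were seen, were Cre07.g346850 and Cre16.g683600. Cre07.g346850 had 2.99, 3.48 and 4.56 CPM in crpaf1-1 and 3.53, 4.4 and 3.02 CPM in crskip-1, against 1.55, 0.785 and 1.3 CPM in wild type. Cre16.g683600 had 3.14, 2.86 and 4.03 CPM in crpaf1-1 and 3.78, 3.6 and 3.24 CPM in crskip-1, against 1.25, 0.785 and 1.36 CPM in wild type. In both the mutants overlapped fully. Genes on the other strand overlap 18.9% of the exonic bases of Cre07.g346850 and 5.04% of those of Cre16.g683600. Cre16.g683550, with a mean of 333 CPM over all libraries, also overlaps Cre16.g683600 by 288 bases on the same strand. The part of these overlaps in the levels was not tested. Replicates were uneven for Cre17.g697850, with 4.87, 4.66 and 9.66 CPM in crpaf1-1 and 5.42, 7.01 and 3.38 CPM in crskip-1, against 3.03, 2.14 and 2.72 CPM in wild type, and its interval for the difference between the mutants, -0.49 to 0.58, was the widest of the 21. The crpaf1-1 libraries were nearly equal for Cre02.g112500, with 7.91, 7.91 and 7.82 CPM in crpaf1-1 and 7.69, 7.82 and 6.54 CPM in crskip-1, against 3.75, 3.14 and 4.26 CPM in wild type. Cre17.g697850 and Cre02.g112500 were also singled out after their values were seen. The mean CPM over all libraries had a median of 5.52 for the 21 genes and 8.12 for the 25 called ones.

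Members lay next to each other in 4 places, so 8 of the 46 had another member as the next gene. On chromosome 1, Cre01.g043800 (6154942 to 6160554) and Cre01.g043817 (6160632 to 6161987) are both on the minus strand, with 77 bases between them. Cre01.g043800 had 79.6, 69.1 and 70.5 CPM in crpaf1-1 and 17, 17.1 and 18.5 CPM in crskip-1, against 7.85, 5.71 and 6.42 CPM in wild type. Cre01.g043817 had 49.2, 41.9 and 49.1 CPM in crpaf1-1 and 10.8, 11.9 and 14.2 CPM in crskip-1, against 2.5, 2.57 and 3.09 CPM in wild type. Both were highest in crpaf1-1 and intermediate in crskip-1, with no overlap between groups. The mutants differed by 1.85 ± 0.08 for Cre01.g043800 (log2, SE; adjusted p = 9.20e-12, edgeR) and by 1.72 ± 0.09 for Cre01.g043817 (adjusted p = 1.57e-10). Per length, Cre01.g043817 had the higher level in every group, with 62.5 CPM per kb in crpaf1-1, 16.5 in crskip-1 and 3.63 in wild type, where Cre01.g043800 had 25.3 in crpaf1-1, 6.07 in crskip-1 and 2.31 in wild type. A gene on the other strand overlaps 27.6% of the exonic bases of Cre01.g043800, whose level is therefore uncertain.

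On chromosome 6, Cre06.g800686 (4544928 to 4546980, minus strand) and Cre06.g800687 (4546985 to 4551109, plus strand) are head to head, with 4 bases between them. Cre06.g800686 had 12.9, 10.6 and 13.0 CPM in crpaf1-1 and 12.7, 13.6 and 13.6 CPM in crskip-1, against 3.81, 4.14 and 2.90 CPM in wild type. Cre06.g800687 had 11.9, 11.8 and 11.6 CPM in crpaf1-1 and 5.55, 6.51 and 5.68 CPM in crskip-1, against 1.90, 2.14 and 2.04 CPM in wild type. On unscaled CPM the mutants overlapped for the first gene, while the second was higher in crpaf1-1 in every library. The log2 difference of crpaf1-1 over crskip-1 was -0.34 for Cre06.g800686 (95% interval -0.57 to -0.11, adjusted p = 0.0134, edgeR) and 0.78 for Cre06.g800687 (0.56 to 1.01, adjusted p = 8.27e-06). The first of these calls was lost with library size alone (adjusted p = 0.307) and without crpaf1-1 replicate 2 (adjusted p = 0.0747), and its adjusted p ranged from 0.00904 to 0.307 over 15 alternatives. The difference between the 2 genes was not itself tested.

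On chromosome 17, Cre17.g723350 (3413283 to 3418726, minus strand) and Cre17.g723400 (3418093 to 3422405, plus strand) are also head to head and overlap by 634 bases. Cre17.g723350 had 44.5, 44.7 and 45.4 CPM in crpaf1-1 and 27.2, 28.0 and 40.4 CPM in crskip-1, against 13.3, 16.6 and 17.8 CPM in wild type. Cre17.g723400 had 48.1, 49.8 and 50.2 CPM in crpaf1-1 and 27, 28.8 and 33.8 CPM in crskip-1, against 15.1, 16.5 and 16.2 CPM in wild type. The 2 genes had similar levels in each group, and replicate 3 was the highest crskip-1 library for both. Genes on the other strand cover 50.9% of the exonic bases of Cre17.g723350 and 20.1% of those of Cre17.g723400. For Cre17.g723350 they include Cre17.g723300, not a member, which overlaps it by 1283 bases. Within these overlaps, reads cannot be told apart if counting did not use the strand. The mutants differed by 0.52 ± 0.08 for Cre17.g723400 (log2, SE; adjusted p = 2.62e-05, edgeR) and by 0.29 ± 0.12 for Cre17.g723350 (adjusted p = 0.0481). The call for Cre17.g723350 was lost in 8 of 15 alternatives, among them leaving out any 1 crpaf1-1 library, crskip-1 replicate 1 or 2, or wild-type replicate 2 (adjusted p 0.000230 to 0.244 over the 15).

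**Figure D4:**
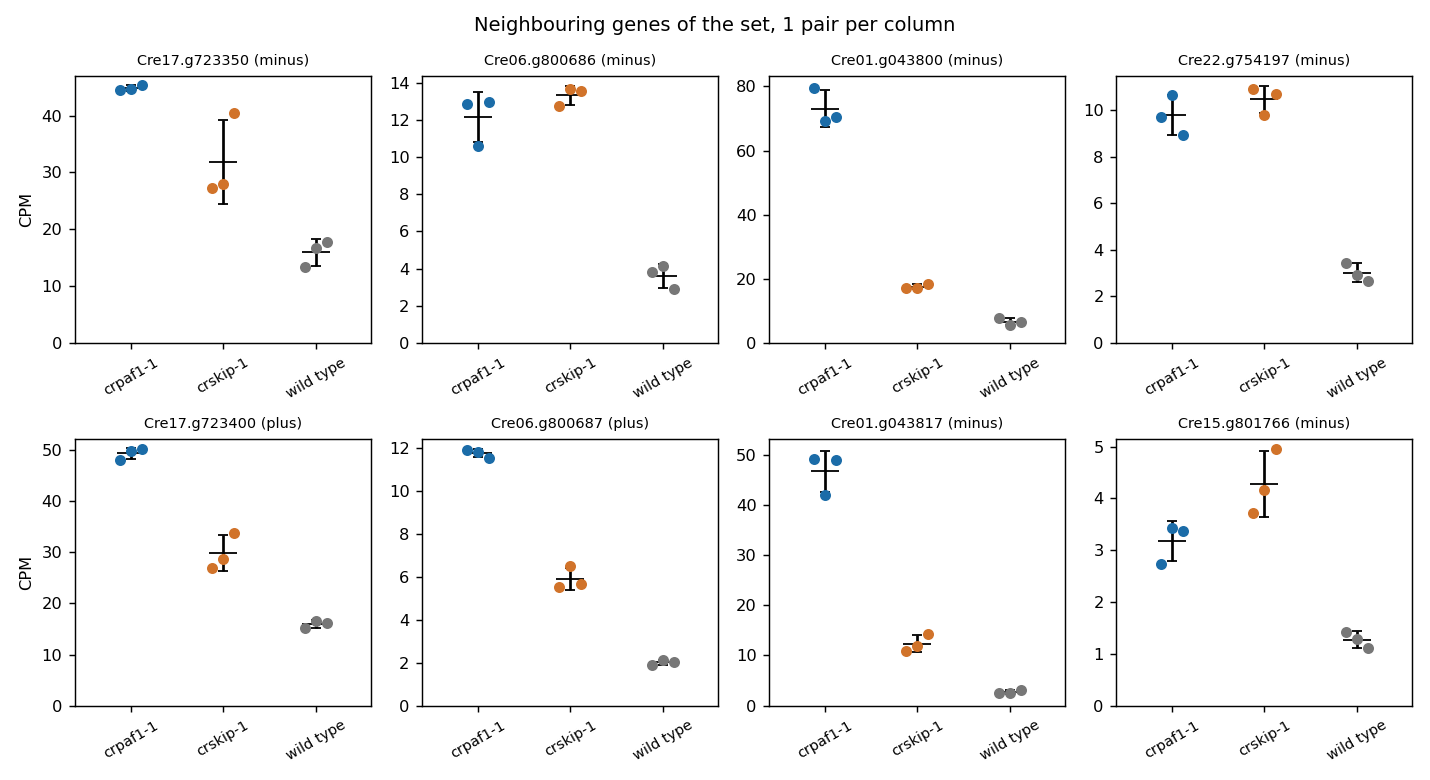
CPM of the 8 genes that lie next to another of the 46, with 1 pair per column and the strand in each title; points are libraries, the horizontal mark is the group mean and the bar its SD (n = 3). The chromosome 1 pair has the same order of groups in both genes, while in the chromosome 6 pair (second column) the unscaled values of the mutants overlap for Cre06.g800686 (means 12.2 and 13.3 CPM) and are apart for Cre06.g800687 (11.8 and 5.91 CPM).

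The fourth pair, Cre22.g754197 and Cre15.g801766, lies on the minus strand of chromosome 15 with 4301 bases between its genes. Cre22.g754197 (2569380 to 2573092) had 9.73, 10.7 and 8.95 CPM in crpaf1-1 and 10.9, 9.80 and 10.7 CPM in crskip-1, against 3.45, 2.93 and 2.65 CPM in wild type. Cre15.g801766 (2577394 to 2583079) had 2.74, 3.42 and 3.38 CPM in crpaf1-1 and 3.72, 4.16 and 4.96 CPM in crskip-1, against 1.43, 1.29 and 1.11 CPM in wild type. Both were lower in crpaf1-1 than in crskip-1, by -0.30 ± 0.11 for Cre22.g754197 (log2, SE; adjusted p = 0.0235, edgeR) and -0.63 ± 0.17 for Cre15.g801766 (adjusted p = 0.00393). The call for Cre22.g754197 was lost in 7 of 15 alternatives (adjusted p 0.0159 to 0.456), among them DESeq2 and leaving out any 1 crpaf1-1 library except replicate 2, or crskip-1 replicate 1 or 3.

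The chromosome 15 pair sits in a gene-poor stretch with Cre15.g801771. Between 2449423 and 2763058 the files list 9 genes over 314 kb, or 2.87 per 100 kb, where the chromosomes as a whole have 12.9 per 100 kb. The stretch was picked after its values were seen, so it is described without a test. Of its 9 genes, 3 were at or below 0.45 CPM in every group and were not tested, and 3 of the other 6 are members, higher in both mutants by choice. Of the 3 tested genes that are not members, edgeR called 2 higher in both mutants, where 12.3% of all genes tested were. They were Cre15.g801767, next to Cre15.g801766 on the other strand, and Cre15.g801761, both under the level filter. Cre15.g801767 had 2.18, 2.53 and 1.66 CPM in crpaf1-1 and 2.40, 2.48 and 2.66 CPM in crskip-1, against 0.238, 0.214 and 0.185 CPM in wild type. Cre15.g801761 had 0.608, 0.505 and 0.415 CPM in crpaf1-1 and 1.26, 1.49 and 1.15 CPM in crskip-1, against 0.119, 0 and 0.0617 CPM in wild type, where it rests on 3 reads in all. The third, Cre15.g801769, was called higher in crpaf1-1 (log2 difference 1.30) and not in crskip-1 (0.65, adjusted p = 0.0621). The log2 differences of the 6 genes from wild type ran between 1.23 and 3.20 in crpaf1-1 and between 0.65 and 4.33 in crskip-1.

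The genes next to members did not as a body share their direction. There were 83 such neighbours that are not members, of which 71 were tested. In crpaf1-1, 24 were called higher than wild type (33.8%) and 21 lower (29.6%), where 28.6% and 29.8% of all genes were. In crskip-1, 23 were called higher (32.4%) and 17 lower (23.9%), where 24.4% and 25.1% of all genes were. Among the 14 tested neighbours upstream on the opposite strand, 8 were higher and 1 lower in crpaf1-1, and 9 were higher and 2 lower in crskip-1. Of the 22 upstream on the same strand, 8 were higher and 6 lower in crpaf1-1, and 7 were higher and 4 lower in crskip-1. Of the 11 downstream on the same strand, 2 were higher and 6 lower in crpaf1-1, and 3 were higher and 3 lower in crskip-1. Of the 24 downstream on the opposite strand, 6 were higher and 8 lower in crpaf1-1, and 4 were higher and 8 lower in crskip-1. These subsets are small, were formed after the data were examined and were given no test.

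Single neighbours went both ways, and those named here were chosen after their values were seen. Cre02.g079050 lies 1135 bases upstream of the member Cre02.g079000 on the other strand. It had 65, 55 and 53 reads in crpaf1-1 and 20, 27 and 17 reads in crskip-1, against 0 reads in all 3 wild-type libraries. The gene was counted in every mutant library and in no wild-type library. The member itself had 4.82, 4.88 and 5.04 CPM in crpaf1-1 and 4.92, 5.27 and 4.89 CPM in crskip-1, against 2.44, 1.57 and 2.10 CPM in wild type, which is 2.41 times wild type in crpaf1-1 and 2.47 times in crskip-1. Cre14.g628533, 783 bases downstream of the member Cre14.g628500 on the other strand, had 2.89, 2.41 and 1.60 CPM in crpaf1-1 and 1.89, 2.17 and 1.22 CPM in crskip-1, against 0.535, 0.214 and 0.185 CPM in wild type.

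By contrast, Cre17.g740750 lies 174 bases upstream of the member Cre17.g740800 on the same strand and was lower in both mutants. It had 3.45, 3.82 and 4.27 CPM in crpaf1-1 and 4.79, 5.40 and 5.18 CPM in crskip-1, against 13.1, 15.2 and 13.2 CPM in wild type (log2 differences -1.93 and -1.31, edgeR). Cre17.g740800 itself had 16.2, 18.0 and 19.4 CPM in crpaf1-1 and 14.6, 14.8 and 23.4 CPM in crskip-1, against 4.82, 7.64 and 8.58 CPM in wild type. The member and its upstream neighbour thus moved in opposite directions in every mutant library. Cre13.g589300, which overlaps the end of the member Cre13.g589350 by 106 bases, was also lower in both, with log2 differences of -1.71 in crpaf1-1 and -0.94 in crskip-1 (edgeR).

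Members were spread over the genome with more on chromosomes 17 and 15. Chromosome 17 held 9 of the 46 (19.6%), against 5.79% of the other nuclear genes at 2 CPM or more, and chromosome 15 held 4 (8.70%), against 1.93%. On chromosome 17 the member Cre17.g740950 lies 14.7 kb from Cre17.g740800, and 10 of the 46 had another member within 100 kb. A gap of 10 kb or more to the next gene on at least 1 side was present for 7 members (15.2%) and for 6.85% of the other genes.

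The gene models of the members had fewer exon blocks and a smaller share of intron. Their median exonic length was 2852 bases, against 2983 for the other 12233 genes, but they had a median of 6 exon blocks against 8, and introns made up a median of 24.8% of the gene span against 38.1%. Genes of a single exon block were 6 of the 46 (13.0%), against 3.99%. All but Cre12.g801360 had a wild-type mean under 2 CPM: Cre13.g801584 (0.129), Cre07.g800794 (0.865), Cre12.g801469 (1.02), Cre01.g800098 (1.37) and Cre05.g243602 (1.84). Those genes passed the level filter only through the mutants. No locus tag of the older v5.5 gene set matched 12 members (26.1%), against 5.09% of the others. Here too, members such as Cre15.g801771, Cre01.g800071 and Cre15.g801766 (wild-type means 1.15, 1.22 and 1.27 CPM) passed only through the mutants. These shares are therefore not read as independent of the choice. Level moves with these features and its part in them was not tested. Among genes with a mean of 2 to 20 CPM (37 members and 5860 others), the members' median was still lower, at 5.52 CPM against 9.28 CPM. Wild-type medians of these sets were further apart, at 2.04 and 9.61 CPM, so level was not matched. In these sets introns took 22.6% against 34.6% of the span, 13.5% against 4.86% had a single block, and 24.3% against 7.34% had no v5.5 tag. The 484 genes lower in both mutants had 9 exon blocks, 30.5% of the span in introns, 1.45% single-block genes and 3.51% without a v5.5 tag. Overlap with a gene on the other strand was as common among the members (37.0%) as among the others (37.6%). These are descriptions without a test.

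**Figure D5:**
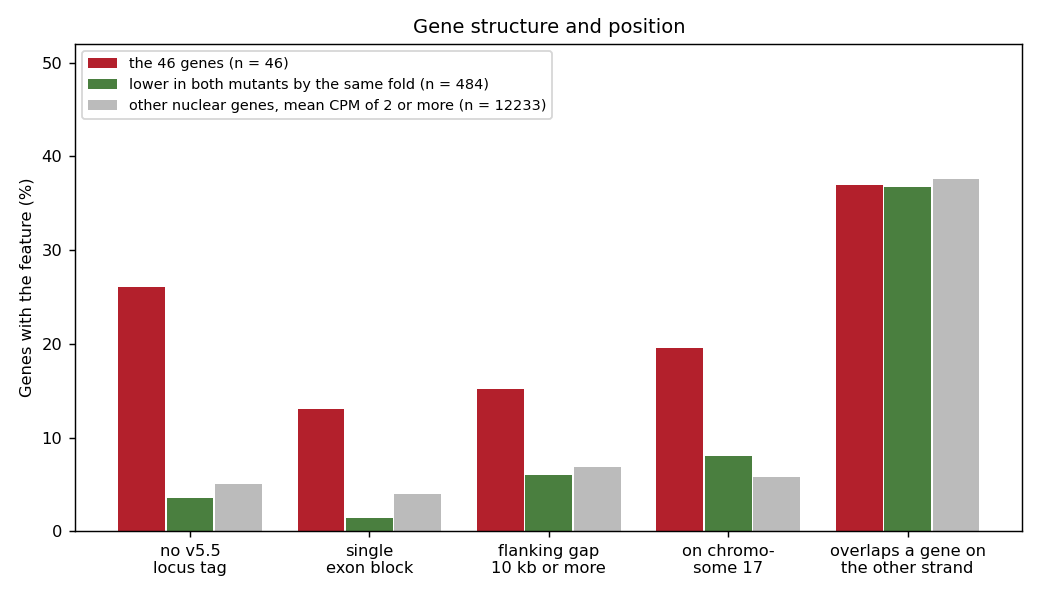
Share of genes (y axis, percent) with each of 5 features, for the 46 genes (red), the 484 genes lower in both mutants by the same fold (green) and the other 12233 nuclear genes with a mean of 2 CPM or more (grey, which include the 484). The red bars are the tallest for genes without a v5.5 locus tag (26.1%), of a single exon block (13.0%), with a flanking gap of 10 kb or more (15.2%) and on chromosome 17 (19.6%), and about level with the others for overlap with the other strand. Some members without a tag or of a single block passed the level filter only through the mutants.

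Values ran on without a break across the limits of the rule. Just inside were Cre09.g399912 (a crpaf1-1 mean 1.8 times wild type), Cre12.g801360 (a crskip-1 mean 1.81 times) and Cre14.g628500 (a crpaf1-1 mean 1.81 times). Just outside were Cre14.g801652 and Cre07.g346900, each with a crskip-1 mean 1.79 times wild type, and Cre09.g399663, with a crskip-1 mean 1.77 times and a crpaf1-1 mean 7.38 times wild type. The level filter kept out 68 genes that met the fold and had no overlap, of which 15 had no v5.5 tag, 5 had no wild-type read and 19 had 1 to 3. One of them, Cre17.g716026, a gene of 1 exon block on chromosome 17 chosen after its values were seen, had 37, 50 and 26 reads in crpaf1-1 and 30, 35 and 22 reads in crskip-1, against 1, 1 and 0 reads in wild type. Its ratio to wild type was 48.8 in crpaf1-1 (95% counting interval 13.2 to 408) and 44.6 in crskip-1 (12 to 374). The 2 wild-type reads set most of the width of these intervals.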

How the data were processed

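The authors deposited 1 table of raw read counts per gene and library, not normalized, for 14621 genes. Bowtie2 and featureCounts were used per the submitters' processing notes; the sources used here give no versions, strand setting or build. The alignments counted were unique and free of duplicates, per the file headers, which lowers counts of abundant genes and of near-identical copies. Bowtie2 does not split reads over introns, so reads across exon junctions may be missing.

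CPM levels are counts over the library total; CPM per kb divides them by exonic length. Overlapping exons of a gene were merged into exon blocks. Log2 differences, their standard errors (log2 difference over the square root of F) and 95% intervals come from edgeR 4.0.16 in R 4.3.3 (TMM, filterByExpr, quasi-likelihood F test, all 9 libraries in 1 fit without covariates), with Benjamini-Hochberg adjustment over 13376 genes; the script was tested on simulated data. DESeq2 1.42.0 was an alternative. Ratios of summed counts have exact counting intervals at 95%.

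The 46 members and all lists were chosen with earlier results of these data known. Named by rule were the 8 members with the largest smaller difference from wild type and the 6 most abundant. So were the 5 called higher and 5 lower in crpaf1-1 than in crskip-1 with the largest difference. The rule also named the 3 adjacent pairs with the smallest gap, and 3 genes on each side of the threshold. The fourth pair and the remaining called members were added to complete their lists. Others are named for a stated reason or were chosen after their values were seen. The reference table (Chlamydomonas_reinhardtii_v5.5, names only) matched 13245 of the 14621 identifiers and gave 0 gene symbols, so lists by function and sequence features were not analysed here.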

Additional observations from a re-analysis of the deposited data

Results flagged for a closer look

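The following 19 genes, each higher in both mutants than in wild type, differed between crpaf1-1 and crskip-1 (edgeR, adjusted p under 0.05). They are the called genes among those named by rule, out of 13 members called higher and 12 called lower. All genes tested gave 25.7% higher and 28.2% lower, near the members' 28.3% and 26.1%. Of the 19, Cre13.g801584, Cre01.g800071 and Cre07.g800794 reached the mean of 2 CPM only through the mutant where they were higher. Values are log2 of crpaf1-1 over crskip-1. Higher in crpaf1-1 were Cre12.g537250 (3.39), Cre01.g043800 (1.85), Cre01.g043817 (1.72), Cre01.g800098 (1.32), Cre07.g800794 (0.99), Cre06.g800687 (0.78), Cre15.g801771 (0.67), Cre03.g176833 (0.57), Cre17.g802138 (0.54), Cre17.g723400 (0.52) and Cre17.g723350 (0.29). Lower in crpaf1-1 were Cre13.g801584 (-1.54), Cre09.g399912 (-1.24), Cre01.g800071 (-1.19), Cre14.g608550 (-0.98), Cre17.g740950 (-0.97), Cre21.g802167 (-0.64), Cre06.g800686 (-0.34) and Cre22.g754197 (-0.30). The calls of Cre17.g723350, Cre06.g800686 and Cre22.g754197 were lost in 8, 2 and 7 of 15 alternatives, and those of the other 16 held in all 15.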

How the results depend on the processing

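The number of genes depends on the rule: a fold of 1.5 gave 125, a fold of 2 gave 29, and a minimum of 5 CPM gave 29, while 1 CPM gave 66. TMM-scaled CPM gave 49 genes (40 of the 46 among them) and lane 2 alone gave 55 (40 of the 46). Leaving out 1 library gave 37 to 58, the lowest without crpaf1-1 replicate 3 and the highest without wild-type replicate 3. Members called higher in crpaf1-1 than in crskip-1 numbered 13 (11 by DESeq2, 19 with library size alone, 10 in lane 2, 10 to 15 with 1 library left out), and members called lower 12 (11, 8, 10 and 9 to 13). The median difference was -0.08 (-0.14 to -0.04 with 1 library left out) and turned to 0.13 with library size alone, where the median of all genes moved too. The 3 pairs among replicates 1, the lane 3 libraries, deviated together (correlation of deviations 0.12 to 0.26), but over all 9 same-numbered pairs it was -0.05 to 0.26 and over 0.1 in 4, so the numbers were not taken to pair the samples; 2 of 18 pairs of unlike number were over 0.1. With the replicate block 15 members were called higher and 13 lower. Of the values recomputed for single named genes, 1007 kept direction and call, 21 lost a call, 4 gained one and 0 called ones reversed; 3 without a call changed sign near 0 (Cre12.g801360 in lane 2 and without crskip-1 replicate 1, Cre02.g142050 without crskip-1 replicate 2). Cre15.g640101 gained its call in 3 alternatives (library size alone, the block, without crskip-1 replicate 3) and Cre12.g801360 in 1 (library size alone). Against wild type, Cre14.g628500 lost its call in crpaf1-1 in lane 2 and without crpaf1-1 replicate 1 or wild-type replicate 3. Its log2 difference ran from 0.61 to 0.93 over 15 alternatives. Cre01.g800071 lost its call in crpaf1-1 against wild type without crpaf1-1 replicate 3. The choice used the contrasts with wild type, so calls in them, also among the 1007, are descriptions only. With wild-type reads in single digits, depth limits the ratios of the lowest genes.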
